A study of Mus musculus with 18 samples.

Results

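The 10 genes described here encode the insulin-like growth factor IGF1, its receptor, the receptor's main docking proteins and the IGF binding proteins. They are Igf1, Igf1r, Irs1, Irs2, Igfbp2, Igfbp3, Igfbp4, Igfbp5, Igfbp6 and Igfbp7, taken by symbol from the 55450 gene identifiers of a table of RNA-seq read counts. They were listed for their role in muscle and because Igf1 and Igfbp3 were seen to be lost in mutant lines of these same data. The differences of those 2 genes between lines, and their changes within the mutant lines, are therefore given as a description without a test. All 10 passed the filter on low counts and were among the 17912 genes tested.

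The cells were C2C12, an established line of mouse myoblasts that differentiates and fuses in low serum. The control cells were a sorted population transfected with the empty pX458 vector. Each mutant line was expanded from a single cell after transfection with Cas9 and pairs of guide RNAs that delete parts of the proximal promoter of Meg3, a noncoding RNA gene of the imprinted Dlk1-Dio3 cluster. The labels call the clone 2-4 a Dlk1-Dio3 overexpressor and the clone 2-7 a Dlk1-Dio3 knockout, and these names are used here as labels. Each line was sequenced as myoblasts in growth medium with 10% fetal bovine serum and as myotubes on day 3 in medium with 2% horse serum, in 3 libraries per line and stage (A, B and C), or 18 in all. Each genotype is 1 line, so genotype and clone cannot be told apart, and nothing states that the 3 libraries of a group came from independent cultures, so p-values measure only the spread between these libraries.

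IGF1 is secreted by muscle cells among many others and acts through the tyrosine kinase IGF1R, which phosphorylates the docking proteins IRS1 and IRS2 and so engages the PI3K, AKT and mTOR branch and the RAS and ERK branch. In myoblasts the pathway is known to support both proliferation and differentiation. The binding proteins hold IGFs outside the cell. They can block or carry the ligand, proteases such as PAPP-A cleave several of them to release it, and stanniocalcins inhibit PAPP-A.

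The libraries held 41544358 to 79140702 counts, so that 3 counts correspond to 0.0375 to 0.0693 CPM (counts scaled to the size of the library with TMM factors), the level below which a gene counts as not detected here. Meg3 had 0 counts in all control libraries and in all libraries labelled knockout, and 5222 to 7763 counts in each overexpressor library. Its counts therefore check the overexpressor label only. Myoblast markers were detected in every group, and the summed level of 9 myotube markers was 318 to 471 CPM in control myoblasts and 16369.8 to 16992.5 CPM in control myotubes. In knockout myoblasts the same sum was 11387 to 14445 CPM, and a sum does not show how single markers moved. Overexpressor myotubes C and overexpressor myoblasts B stood apart from the other libraries of their groups. In knockout myotubes, A and C differed more from each other than either did from B. Members whose call changes without one of these libraries are named below.

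Promoter sequences are shown for the 4 binding proteins whose levels moved most between stages or lines. Each is the stretch before a RefSeq start site (GRCm38.p6), for Igfbp2 the first of 2, written 5′ to 3′ on the gene's strand, and capitals mark the E-box CANNTG, the motif that myogenic basic helix-loop-helix factors and many others bind. The Igfbp2 window is chr1:72824230-72824479 on the plus strand, that of Igfbp3 chr11:7213924-7214173 on the minus strand, that of Igfbp4 chr11:99040994-99041243 on the plus strand and that of Igfbp5 chr1:72874885-72875115 on the minus strand, the last trimmed where an annotated exon begins.
Igfbp2: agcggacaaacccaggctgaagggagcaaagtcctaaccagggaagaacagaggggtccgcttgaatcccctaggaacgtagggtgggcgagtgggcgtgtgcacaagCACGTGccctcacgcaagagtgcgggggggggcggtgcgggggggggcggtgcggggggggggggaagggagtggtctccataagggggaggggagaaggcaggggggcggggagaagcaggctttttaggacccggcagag
Igfbp3: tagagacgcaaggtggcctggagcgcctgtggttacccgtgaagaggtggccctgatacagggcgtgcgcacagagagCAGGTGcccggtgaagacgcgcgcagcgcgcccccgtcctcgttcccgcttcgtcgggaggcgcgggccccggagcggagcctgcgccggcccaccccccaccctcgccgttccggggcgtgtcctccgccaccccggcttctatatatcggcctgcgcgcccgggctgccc
Igfbp4: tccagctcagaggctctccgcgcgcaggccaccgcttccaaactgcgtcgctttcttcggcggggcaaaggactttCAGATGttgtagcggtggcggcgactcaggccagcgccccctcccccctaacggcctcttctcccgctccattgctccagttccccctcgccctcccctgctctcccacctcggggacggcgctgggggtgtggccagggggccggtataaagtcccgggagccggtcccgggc
Igfbp5: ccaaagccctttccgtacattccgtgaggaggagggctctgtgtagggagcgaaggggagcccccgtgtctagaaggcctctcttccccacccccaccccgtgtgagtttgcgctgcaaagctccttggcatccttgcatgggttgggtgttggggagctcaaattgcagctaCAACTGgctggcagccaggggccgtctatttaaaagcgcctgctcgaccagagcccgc
Each window held 1 E-box, CACGTG in Igfbp2, CAGGTG in Igfbp3, CAGATG in Igfbp4 and CAACTG in Igfbp5, and none held CAGCTG. The motif reads the same on both strands. It was found in 66.2% of 32851 mouse promoter windows of 250 bases, and CAGCTG in 13.0%, so its presence does not single these promoters out. The window before the other Igfbp2 start site, chr1:72825137-72825321 (185 bases), held 0 E-boxes, which says only that these letters are not in that window. Igfbp2 and Igfbp5 lie tail to tail on chromosome 1, with 5457 bases between their ends, and Igfbp3 lies on chromosome 11, 3539 bases from Igfbp1, which had at most 3 counts in any library.

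Igf1 (chromosome 10, 87858265 to 87937042, plus strand of GRCm38) encodes the ligand, and its transcript was highest in control myotubes. Control myoblasts held 13.9, 10.2 and 9.76 CPM in libraries A, B and C, and control myotubes 74.3, 72.3 and 85.9 CPM. Overexpressor myoblasts had 1, 0 and 2 counts of Igf1, and knockout myoblasts held 6.0, 6.39 and 6.44 CPM. In both mutant lines every library was below every control library of the same stage. Overexpressor myotubes held 1.6, 1.15 and 3.13 CPM, with library C the highest, and knockout myotubes held 8.59, 5.98 and 6.34 CPM.

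Within the control line Igf1 rose 6.87-fold with differentiation (log2 fold change 2.78, SE 0.26, adjusted p = 1.44e-07). The mutant lines are given as a description, because the low mutant values chose the gene. The overexpressor line went from 3 counts over its 3 myoblast libraries to 425 over its 3 myotube libraries. The level was 90.3-fold lower in its myoblasts, with an exact 95% counting interval of 30.7 to 439.5. Its myotubes reached a mean of 1.96 CPM against 77.5 CPM in control. In the knockout line the stages overlapped, and the log2 fold change of Igf1 was 0.15. That small difference turned negative with plain library totals (-0.02) and without knockout myotubes A (-0.03).

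Against control, given as a description, Igf1 was 529-fold lower in overexpressor myoblasts with a counting interval of 181 to 2569, and 1.8-fold lower in knockout myoblasts. In myotubes it was 39.6-fold lower in the overexpressor and 11.1-fold lower in the knockout line. Between the mutant lines, also as a description because the low mutant values chose the gene, Igf1 was 293-fold lower in overexpressor than in knockout myoblasts with an interval of 100.0 to 1424, and 3.57-fold lower in overexpressor than in knockout myotubes (log2 fold change -1.83, and -2.32 without overexpressor myotubes C).

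**Figure D1:**
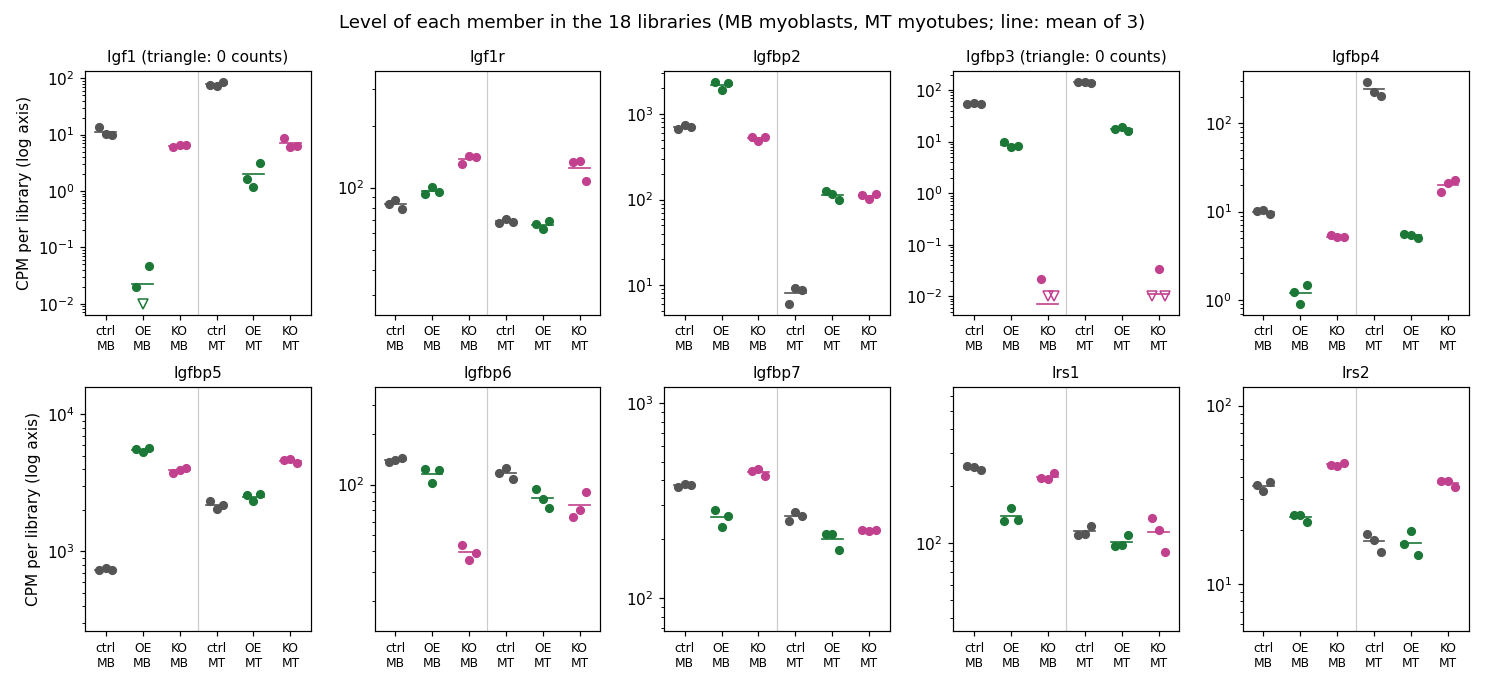
Level of each of the 10 genes in the 18 libraries, in CPM on a log axis, for control (ctrl), overexpressor (OE) and knockout (KO) myoblasts (MB) and myotubes (MT). Points are libraries, lines are means of 3, and open triangles are libraries with 0 counts, set at the bottom of the panel. Igf1 is near 0 in overexpressor myoblasts and Igfbp3 is near 0 in both stages of the knockout line.

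A collagen gene, Col1a1, and with it the summed level of 6 fibroblast markers moved with Igf1 between lines, while single markers did not all do so. The sum of Pdgfra, Thy1, Dpt, Dcn, Col1a1 and Lum, most of it Col1a1 in every group but overexpressor myoblasts, was 788 to 839 CPM in control myoblasts, 42.2 to 45.8 CPM in overexpressor and 389 to 613 CPM in knockout myoblasts. In myotubes it was 5862 to 6929 CPM in control, 320 to 496 CPM in overexpressor and 1367 to 1600 CPM in knockout libraries. In overexpressor myoblasts Pdgfra held a mean of 21 CPM, Dcn 12.8 CPM and Col1a1 9.85 CPM. Dcn, which encodes the proteoglycan decorin, was higher there than in control myoblasts (1.88 CPM, adjusted p = 1.44e-09) and was also higher in knockout myoblasts (5.3 CPM, adjusted p = 2.79e-06). Pdgfra (36.9 against 30 CPM, adjusted p = 0.0168) and Dpt (0.573 against 0.374 CPM, adjusted p = 0.0433) exceeded control in knockout myoblasts, which held less Igf1 than control. Thy1 had at most 4 counts in any library. Of the 6 markers, 2 were at 3 counts or fewer in every library of control myoblasts, overexpressor myoblasts and overexpressor myotubes, 1 in knockout myoblasts and knockout myotubes, and 0 in control myotubes. Their part in the result was not tested, and in bulk RNA fewer cells of a type cannot be told apart from less RNA per cell.

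Igf1r (chromosome 7, 67952827 to 68233668, plus strand) encodes the receptor, and its transcript was highest in the knockout line at both stages. Control myoblasts held 83, 87.2 and 78.9 CPM, overexpressor myoblasts 92.7, 100.4 and 95.2 CPM and knockout myoblasts 131, 142 and 140.5 CPM. The 3 myoblast groups did not overlap. Control myotubes held 67.5, 70.2 and 68.1 CPM, overexpressor myotubes 66.4, 62.8 and 69 CPM and knockout myotubes 133, 135 and 108 CPM. Knockout cells thus had more Igf1r transcript than control cells, as myoblasts (1.66-fold, log2 fold change 0.73, SE 0.08, adjusted p = 1.82e-07) and as myotubes (1.82-fold, log2 fold change 0.87, SE 0.08, adjusted p = 1.22e-08).

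Overexpressor myoblasts had more Igf1r than control myoblasts (1.16-fold, log2 fold change 0.21, SE 0.07, adjusted p = 0.0323), a call that was lost with plain library totals (0.115), with no filter on low counts (0.0935) and without control myoblasts A (0.0788) or C (0.136) or overexpressor myoblasts B (0.106) or C (0.0607), these values being adjusted p, with a range over the alternatives of 0.0255 to 0.136. In myotubes the overexpressor and control libraries overlapped (log2 fold change -0.05, SE 0.07, adjusted p = 0.568). Igf1r fell with differentiation in the control line (log2 fold change -0.28, SE 0.08, adjusted p = 0.00365) and in the overexpressor line (log2 fold change -0.54, SE 0.07, adjusted p = 4.78e-06). The knockout libraries of the stages overlapped (log2 fold change -0.14, SE 0.07, adjusted p = 0.113), but with library totals the fall passed (-0.30, adjusted p = 0.00347, range 0.00347 to 0.9). The response to differentiation, tested as an interaction, did not pass in the overexpressor line (-0.26, SE 0.11, adjusted p = 0.0576) or in the knockout line (0.14, SE 0.11, adjusted p = 0.291) against control. The former passed with only its own 4 groups in the fit (adjusted p = 0.0338, range 0.0338 to 0.656). The latter passed under DESeq2's scaling (adjusted p = 0.0255), under its Wald test (0.0219) and without knockout myotubes C (0.0348, range 0.0219 to 0.568).

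Both docking proteins fell with differentiation in every line. Irs1 (chromosome 1, 82233101 to 82291416, minus strand) held 255, 251 and 243 CPM in control, 131, 153 and 131 CPM in overexpressor and 220.2, 219 and 234 CPM in knockout myoblasts. The overexpressor myoblasts were the lowest and overlapped neither of the other lines. In myotubes the lines overlapped, at 110.2, 112 and 123 CPM in control, 96.3, 97.7 and 110.5 CPM in overexpressor and 136, 116 and 89.6 CPM in knockout libraries. Irs1 was lower in overexpressor than in control myoblasts (1.8-fold, log2 fold change -0.85, SE 0.11, adjusted p = 4.15e-06) but did not pass in knockout myoblasts (log2 fold change -0.16, SE 0.11, adjusted p = 0.24). That difference passed with only the 2 groups in the fit (adjusted p = 0.000914, range 0.000914 to 0.431). Neither mutant line passed against control in myotubes (-0.18, adjusted p = 0.168 for the overexpressor and -0.01, adjusted p = 0.926 for the knockout line). Overexpressor against knockout myotubes did not pass either (-0.17, adjusted p = 0.193), but passed without knockout myotubes C (-0.31, adjusted p = 0.00583, range 0.00583 to 0.863). The fall with differentiation was -1.12, SE 0.11, adjusted p = 5.45e-08 in control, -0.45, SE 0.11, adjusted p = 0.00149 in overexpressor and -0.98, SE 0.11, adjusted p = 4.41e-07 in knockout cells. It was shallower in the overexpressor line than in control (difference in log2 fold change 0.67, SE 0.15, adjusted p = 0.00174), and the knockout line did not pass that test (0.14, SE 0.15, adjusted p = 0.46).

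Irs2 (chromosome 8, 10984681 to 11008458, minus strand), the other docking protein, was highest in the knockout line at both stages. Control, overexpressor and knockout myoblasts held 36, 33.3 and 37.4 CPM, 24.3, 24.5 and 22.3 CPM and 46.7, 46 and 47.8 CPM, with no overlap. Control and overexpressor myotubes overlapped at 19.1, 17.7 and 15.1 CPM and 16.8, 19.7 and 14.5 CPM, and knockout myotubes stood above them at 37.6, 37.9 and 34.9 CPM. Against control, Irs2 was lower in overexpressor myoblasts (1.5-fold, log2 fold change -0.59, SE 0.10, adjusted p = 0.000115). Higher values were found in knockout myoblasts (log2 fold change 0.40, SE 0.10, adjusted p = 0.00247), as well as in knockout myotubes (log2 fold change 1.09, SE 0.10, adjusted p = 3.15e-08). It fell with differentiation by 2.05-fold in control (log2 fold change -1.04, SE 0.10, adjusted p = 5.44e-08), 1.39-fold in overexpressor (log2 fold change -0.48, SE 0.10, adjusted p = 0.000423) and 1.27-fold in knockout cells (log2 fold change -0.35, SE 0.10, adjusted p = 0.00519). The knockout fall was lost under DESeq2's scaling (adjusted p = 0.0715) and its Wald test (0.0755, range 0.000265 to 0.0755). Both mutant lines had a shallower fall than control (differences 0.56, SE 0.14, adjusted p = 0.00417 for overexpressor and 0.69, SE 0.14, adjusted p = 0.000596 for knockout). The exons of Irs1 and Irs2 overlap annotated transcripts on the opposite strand over 2822 and 162 bases, and those of Igfbp7 over 85 bases, so reads there cannot be assigned with certainty because the use of strand is not given.

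Igfbp2 (chromosome 1, 72824503 to 72852474, plus strand), a secreted binding protein known from proliferating myoblasts, was the member with the largest fall on differentiation in each line. Control myoblasts held 672, 739.9 and 698 CPM and control myotubes 6.06, 9.22 and 8.77 CPM, a 87.9-fold fall (log2 fold change -6.46, SE 0.16, adjusted p = 1.12e-15). Overexpressor myoblasts held 2386, 1929.8 and 2295 CPM and overexpressor myotubes 127, 117 and 98.1 CPM (log2 fold change -4.27, SE 0.14, adjusted p = 3.39e-14). Knockout cells went from 533, 484 and 546 CPM to 112, 102 and 117 CPM (log2 fold change -2.24, SE 0.13, adjusted p = 1.23e-10). Igfbp2 was thus above control in the myotubes of both mutant lines, 14.3-fold in the overexpressor (log2 fold change 3.83, SE 0.14, adjusted p = 2.76e-13) and 13.8-fold in the knockout line (log2 fold change 3.79, SE 0.14, adjusted p = 2.61e-13). In myoblasts the lines moved in opposite directions, higher in the overexpressor (3.13-fold, log2 fold change 1.65, SE 0.12, adjusted p = 6.46e-09) and lower in the knockout line (1.35-fold, log2 fold change -0.43, SE 0.12, adjusted p = 0.00576). The fall on differentiation was shallower than in control by 2.19, SE 0.18, adjusted p = 2.86e-08 in the overexpressor and by 4.22, SE 0.18, adjusted p = 9.42e-12 in the knockout line, on the log2 scale. Mutant myotubes overlapped each other and did not differ beyond their spread (log2 fold change 0.05, SE 0.12, adjusted p = 0.766). Cycling-cell markers (Mki67, Top2a, Ccna2, Ccnb1 and Mcm2), all detected in every group, moved with Igfbp2 between stages. They summed to 1174 to 1240.4 CPM in control myoblasts and 104 to 134 CPM in control myotubes, 998 to 1318 and 179 to 231 CPM in the overexpressor, and 931 to 991 and 189 to 238 CPM in the knockout line, and their part in the result was not tested.

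Igfbp3 (chromosome 11, 7206086 to 7213923, minus strand), the main IGF carrier of serum, was at the detection limit in the knockout line. Its counts there were 1, 0 and 0 in myoblasts A, B and C and 0, 2 and 0 in myotubes, so no fold between these stages is given. Control myoblasts held 52.9, 55.1 and 53 CPM and control myotubes 144, 144 and 137 CPM. Overexpressor myoblasts held 9.64, 7.7 and 8.18 CPM and overexpressor myotubes 17.7, 19.3 and 16.2 CPM, below control and above knockout in every library. Both lines that held the transcript raised it with differentiation, control by 2.63-fold (log2 fold change 1.40, SE 0.11, adjusted p = 3.27e-09). The overexpressor rise, given as a description, was 2.08-fold (log2 fold change 1.06).

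As a description against control, Igfbp3 was 8467-fold lower in knockout myoblasts, with a counting interval of 1519 to 334488, and 11734-fold lower in knockout myotubes, with an interval of 3248 to 96896. The overexpressor line was 6.31-fold lower than control in myoblasts and 7.98-fold lower in myotubes. Between the mutant lines, likewise as a description, Igfbp3 was 1347-fold lower in knockout than in overexpressor myoblasts (interval 241 to 53231) and 1478-fold lower in myotubes (interval 409 to 12206). The 2 genes therefore had opposite orders between the mutant lines, with Igf1 lowest in the overexpressor and Igfbp3 lowest in the knockout line at both stages. These intervals cover counting error only.

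Igfbp4 (chromosome 11, 99041244 to 99054392, plus strand), known mainly as an inhibitor of IGF action that PAPP-A removes, had the largest rise on differentiation in control cells. It went from 10.1, 10.3 and 9.31 CPM in control myoblasts to 294, 228 and 202 CPM in control myotubes (24.3-fold, log2 fold change 4.60, SE 0.15, adjusted p = 3.33e-14). Overexpressor cells went from 1.22, 0.906 and 1.48 CPM to 5.64, 5.42 and 5.04 CPM (log2 fold change 2.16, SE 0.17, adjusted p = 5.36e-09) and knockout cells from 5.38, 5.1 and 5.14 CPM to 16.5, 20.9 and 22.7 CPM (log2 fold change 1.94, SE 0.14, adjusted p = 3.26e-09). All 3 lines rose without overlap between stages, but mutant myotubes stayed far below control myotubes. The difference from control was 45-fold in overexpressor myotubes (log2 fold change -5.49, SE 0.16, adjusted p = 1.29e-14) and 12.1-fold in knockout myotubes (log2 fold change -3.59, SE 0.14, adjusted p = 6.21e-13). Among myoblasts it was 8.29-fold (log2 fold change -3.05, SE 0.17, adjusted p = 1.44e-10) and 1.91-fold (log2 fold change -0.93, SE 0.15, adjusted p = 3.12e-05). The rise itself was smaller than in control by -2.44 in the overexpressor (SE 0.23, adjusted p = 1.75e-07) and -2.66 in the knockout line (SE 0.20, adjusted p = 7.24e-09). The sum of fibroblast markers given with Igf1, most of it Col1a1, had the same order of lines at the myotube stage. Dcn (48.2 CPM in knockout against 46.6 CPM in control myotubes, adjusted p = 0.804) and Lum (2.48 against 2.53 CPM, adjusted p = 0.995) did not pass there, and the part of these markers in the result was not tested.

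Igfbp5 (chromosome 1, 72857932 to 72874884, minus strand), the binding protein best known from differentiating myoblasts, rose with differentiation in control and fell in the overexpressor line. Control cells went from 729, 751 and 727 CPM to 2342, 2037 and 2192 CPM (log2 fold change 1.57, SE 0.07, adjusted p = 4.34e-13). Overexpressor cells went from 5562, 5281 and 5704 CPM to 2563, 2341 and 2613 CPM (log2 fold change -1.14, SE 0.07, adjusted p = 3.52e-11). Knockout cells were high at both stages, 3703, 3934 and 4061 CPM and 4609.9, 4753 and 4424 CPM (log2 fold change 0.24, SE 0.07, adjusted p = 0.0041). The small rise in the knockout line was lost with library totals (0.07, adjusted p = 0.348, range 2.55e-07 to 0.348).

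In myoblasts both mutant lines were far above control, 7.5-fold in the overexpressor (log2 fold change 2.91, SE 0.07, adjusted p = 1.69e-15) and 5.3-fold in the knockout line (log2 fold change 2.41, SE 0.07, adjusted p = 6.34e-15). In myotubes the knockout line was 2.1-fold above control (log2 fold change 1.07, SE 0.07, adjusted p = 1.17e-10). The overexpressor was 1.14-fold above control there (log2 fold change 0.19, SE 0.07, adjusted p = 0.0165), its lowest library lay just inside the control range, and without control myotubes B the call was lost (0.14, adjusted p = 0.0998, range 1.93e-05 to 0.0998). Knockout myoblasts, where Igfbp5 was high, also had the high sum of myotube markers given above. That sum was 511 to 811 CPM in overexpressor myoblasts, where Igfbp5 was higher still, and the part of these markers in the result was not tested. The response to differentiation differed from control by -2.71, SE 0.09, adjusted p = 3.31e-13 in the overexpressor and by -1.34, SE 0.09, adjusted p = 1.9e-09 in the knockout line.

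Igfbp6 (chromosome 15, 102144362 to 102149511, plus strand), which prefers IGF2 over IGF1, was low in the knockout line. Knockout myoblasts held 43.3, 35.5 and 38.7 CPM, against 137, 141 and 144 CPM in control and 124, 102 and 123 CPM in overexpressor myoblasts. The difference from control was 3.59-fold in knockout myoblasts (log2 fold change -1.84, SE 0.12, adjusted p = 8.31e-10). Myotubes held 118, 126 and 108 CPM in control, 94.3, 81.8 and 72.8 CPM in overexpressor and 64.3, 70.8 and 90.5 CPM in knockout libraries. Both mutant lines lay below control there (log2 fold change -0.50, SE 0.12, adjusted p = 0.0016 for overexpressor and -0.64, SE 0.12, adjusted p = 0.000139 for knockout), while their own ranges overlapped (0.14, SE 0.12, adjusted p = 0.315). Without knockout myotubes C, the highest of its group, overexpressor myotubes passed as higher than knockout (adjusted p = 0.0339, range 0.0339 to 0.791).

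Igfbp6 rose with differentiation in the knockout line (log2 fold change 0.94, SE 0.12, adjusted p = 2.93e-06) and fell in the overexpressor line (log2 fold change -0.49, SE 0.12, adjusted p = 0.00173). In control the stages did not overlap but the test was not passed (log2 fold change -0.26, SE 0.12, adjusted p = 0.0624). It was passed with library totals (-0.51, adjusted p = 0.000732) and with only these groups in the fit (0.000266, range 0.000266 to 0.197). The knockout response differed from that of control (1.20, SE 0.17, adjusted p = 1.53e-05), and the overexpressor response did not pass that test (-0.22, SE 0.17, adjusted p = 0.331). Overexpressor myoblasts did not pass against control (-0.28, SE 0.12, adjusted p = 0.0748), though they did with library totals (adjusted p = 0.0314) and with only these groups in the fit (0.00736, range 0.00736 to 0.27).

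Igfbp7 (chromosome 5, 77349240 to 77408041, minus strand), a relative that binds IGFs weakly, fell with differentiation in all 3 lines. The log2 fold change was -0.53, SE 0.08, adjusted p = 9.35e-06 in control, -0.36, SE 0.08, adjusted p = 0.000474 in overexpressor and -0.99, SE 0.08, adjusted p = 4.51e-09 in knockout cells. Myoblasts held 369, 385 and 380.2 CPM in control, 281, 231 and 262 CPM in overexpressor and 445, 461 and 419 CPM in knockout libraries. Myotubes held 248, 275 and 264 CPM, 214, 212 and 177 CPM and 223, 221 and 224 CPM in the same order. The overexpressor line had the lowest mean at both stages, below control as myoblasts (1.46-fold, log2 fold change -0.55, SE 0.08, adjusted p = 1.26e-05) and as myotubes (1.31-fold, log2 fold change -0.39, SE 0.08, adjusted p = 0.000306). Overexpressor against knockout myotubes did not pass (log2 fold change -0.15, SE 0.08, adjusted p = 0.108). Without overexpressor myotubes C that difference was -0.04 (adjusted p = 0.726). Knockout cells were above control as myoblasts (1.17-fold, log2 fold change 0.22, SE 0.08, adjusted p = 0.02) but below it as myotubes (log2 fold change -0.24, SE 0.08, adjusted p = 0.0109).

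Both knockout calls were fragile. That in myoblasts was lost under DESeq2's scaling (adjusted p = 0.0636), under its Wald test (0.0726) and without control myoblasts A (0.0673) or knockout myoblasts A (0.0516) or B (0.0815, range 0.000113 to 0.0815). That in myotubes was lost under DESeq2's scaling (-0.11, adjusted p = 0.295) and in the Wald test (0.336, range 0.00565 to 0.336). The knockout response to differentiation was steeper than that of control (-0.46, SE 0.11, adjusted p = 0.00187), which the Wald test missed (adjusted p = 0.0526, range 0.000319 to 0.0526). The overexpressor response did not pass (0.16, SE 0.11, adjusted p = 0.258) but did with library totals (adjusted p = 0.0148) and without overexpressor myotubes C (0.36, adjusted p = 0.0072, range 0.0072 to 0.533).

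**Figure D2:**
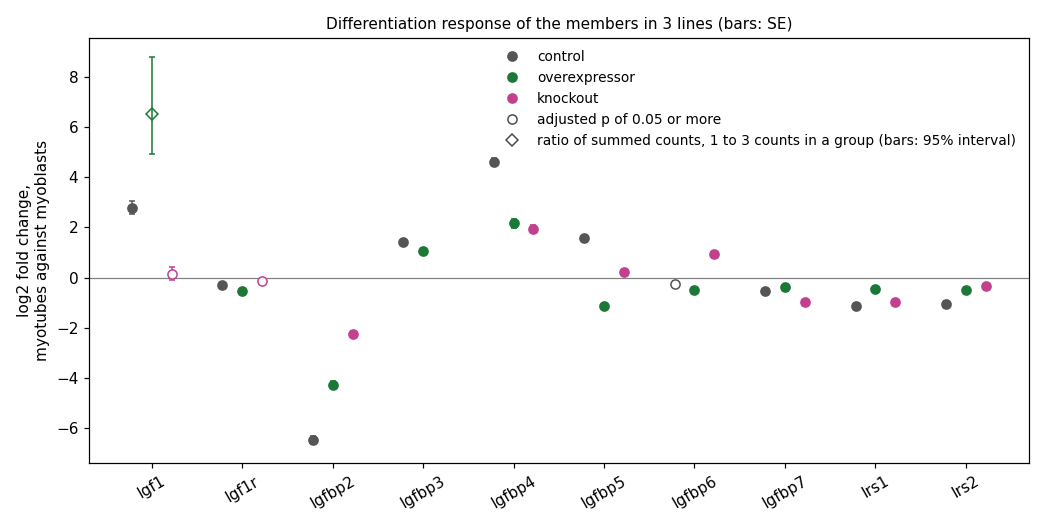
Log2 fold change of each gene from myoblasts to myotubes in the control, overexpressor and knockout lines, with bars of 1 SE. Open circles did not pass the test, and the open diamond is a ratio of summed counts with its 95% counting interval, used where a group held 1 to 3 counts. The overexpressor values of Igf1 and Igfbp3 and the knockout value of Igf1 are a description without a test. Where these are drawn as circles, filled or open, the fill is not to be read as a test result. Igfbp5 is above 0 in control and below 0 in the overexpressor line, and Igfbp3 in the knockout line is left out because both stages were at the detection limit.

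Compared per kilobase of exon, which allows levels of different genes to be set side by side, the makeup of binding protein transcripts changed with both stage and line. In control myoblasts the 6 binding proteins summed to 962 ± 29.2 CPM per kb (SD, n = 3), of which Igfbp2 was 39.6 ± 0.734%, Igfbp7 32.5 ± 0.325%, Igfbp6 13.2 ± 0.305% and Igfbp5 12.7 ± 0.239%. In control myotubes the sum was 791.5 ± 22.5 CPM per kb, Igfbp2 had shrunk to 0.551 ± 0.13% and Igfbp5 had grown to 46.1 ± 2.38%. Igfbp4 and Igfbp3 reached 6.89 ± 1.15% and 5.71 ± 0.148% there, their highest shares in any group. In control myoblasts Igfbp3 held 1.78 ± 0.0262% and Igfbp4 0.234 ± 0.0137%.

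In overexpressor myoblasts the sum was 2432.5 ± 194 CPM per kb, the highest of the 6 groups, and Igfbp2 with 49 ± 1.56% and Igfbp5 with 37.8 ± 1.85% made up most of it. Knockout myoblasts summed to 1333 ± 20.4 CPM per kb, with Igfbp5 at 48.7 ± 1.56%, Igfbp7 at 27.4 ± 1.6% and Igfbp2 at 21.2 ± 1.27%. The order of the last 2 depends on the length used. With the longest transcript as the length, Igfbp2 held 27.4% and Igfbp7 25.4%. In myotubes Igfbp5 was the largest share of both mutant lines, 57.5 ± 3.62% of 727 ± 32.3 CPM per kb in the overexpressor and 70.8 ± 1.79% of 1081 ± 14.5 CPM per kb in the knockout line. The mutant myotubes kept more Igfbp2 than control, 8.49 ± 0.838% and 5.54 ± 0.455%. Igf1 on the same scale was 7.83 ± 0.744 CPM per kb in control myotubes, 0.198 ± 0.104 in overexpressor and 0.703 ± 0.143 in knockout myotubes, and Igf1r was 4.08 ± 0.083, 3.94 ± 0.186 and 7.45 ± 0.879 CPM per kb.

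**Figure D3:**
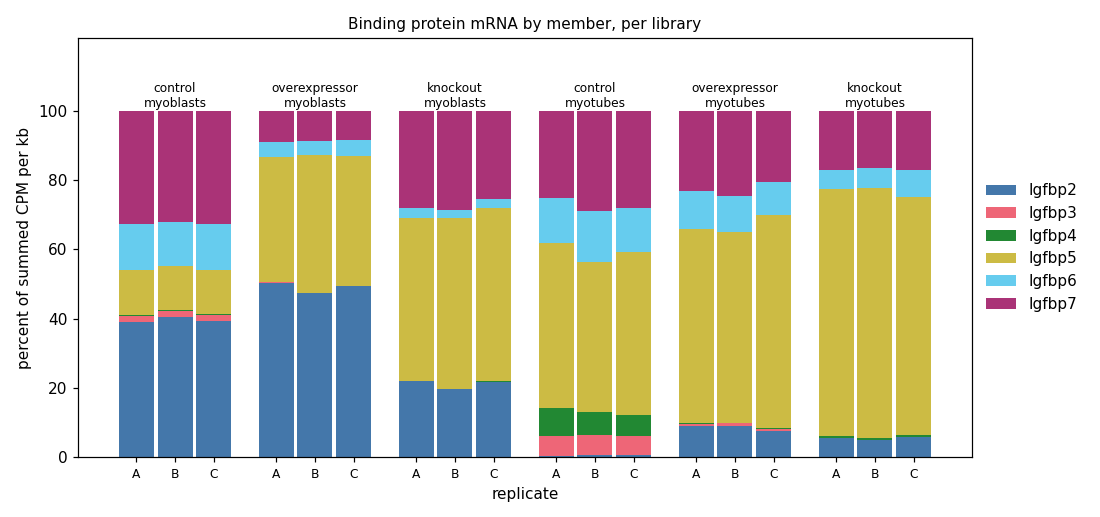
Share of each of the 6 binding proteins in their summed level (percent of summed CPM per kb of exon), 1 bar per library, grouped by line and stage. The large Igfbp2 share of control myoblasts is nearly gone in control myotubes, and Igfbp5 holds the largest share in the myotubes of every line.

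The members' calls stand beside a transcriptome in which a large share of all genes passed the same test. Of the 8 members tested against control, 3 were higher and 4 lower in overexpressor myoblasts (20.7% and 19.7% of all genes, 40.4% in all), and 4 were higher and 3 lower in knockout myoblasts (26.4% and 26.6% of all genes, 53% in all). In myotubes 2 were higher and 3 lower in the overexpressor (26.2% and 30.9% of all genes, 57.1% in all), and 4 were higher and 3 lower in the knockout line (31% and 37% of all genes, 68% in all). These comparisons share the control libraries of each stage, so their values are not independent. Between the mutant lines the same 8 members all passed in myoblasts, 3 higher and 5 lower in the overexpressor (25.7% and 26.9% of all genes, 52.6% in all). In myotubes 4 of them passed, each lower in the overexpressor (30.6% of all genes were higher and 29.1% lower, 59.7% in all). With these backgrounds the counts say little about the members as a group, and the members' own sizes of change carry the description.

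**Figure D4:**
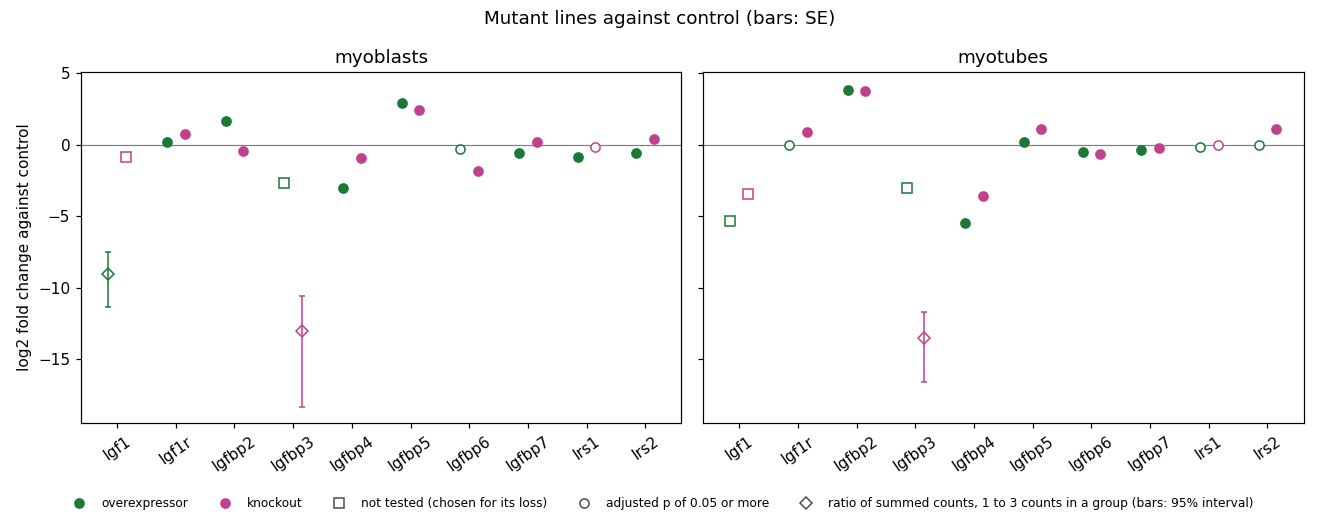
Log2 fold change of each gene in the overexpressor and knockout lines against control, in myoblasts and in myotubes, with bars of 1 SE. Squares are Igf1 and Igfbp3, which were chosen for their loss and not tested, diamonds are ratios of summed counts with 95% counting intervals, and open circles did not pass the test. Igfbp2 and Igfbp4 lie far above and far below 0 in the myotubes of both lines.

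With differentiation 4 of 10 members rose and 5 fell in control, where 33.9% of all genes rose and 28.8% fell (62.8% in all). Of the 8 members not chosen for their loss, 2 rose and 5 fell there. In the overexpressor line 1 of these 8 rose and 7 fell, against 29.8% and 33% of all genes (62.8% in all). In the knockout line 3 of them rose and 4 fell, against 29.8% and 35.6% of all genes (65.4% in all). The genes that rose in control were Igf1, Igfbp3, Igfbp4 and Igfbp5, and those that fell were Igf1r, Irs1, Irs2, Igfbp2 and Igfbp7. The test of the response itself, the interaction of line and stage, was passed by 5 of 8 members in the overexpressor, 3 with a higher and 2 with a lower response (16.6% and 22.3% of all genes, 39% in all). Of the same 8, 6 passed in the knockout line, 3 in each direction (20.2% higher and 29.9% lower of all genes, 50.1% in all). Igfbp2, Igfbp4, Igfbp5 and Irs2 passed it in both lines, which share the control libraries.

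Other genes of the IGF and insulin pathway came from a list of 94, of which 87 were tested. In control cells 45 rose and 19 fell with differentiation, against 33.9% and 28.8% of all genes, with a median log2 fold change of 0.30 against 0.07 over all genes tested. In the overexpressor line 33 rose and 28 fell, against 29.8% and 33% of all genes (median 0.10 against -0.02). Knockout cells had 41 that rose and 33 that fell, against 29.8% and 35.6% of all genes (median -0.10 against -0.08). In control 5 of 6 tested ligands and receptors rose and 1 fell. Of 9 IGFBP proteases and their inhibitors 6 rose and 1 fell in control, 2 rose and 3 fell in the overexpressor and 2 rose and 7 fell in the knockout line, beside the same shares of all genes.

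Igf2, the other IGF ligand, rose in all 3 lines. It went from 4.52 ± 0.51 to 23.7 ± 2.94 CPM in control (SD, n = 3, log2 fold change 2.39, SE 0.14, adjusted p = 4.31e-11), from 1.69 ± 0.275 to 18 ± 1.22 CPM in the overexpressor (log2 fold change 3.41, SE 0.15, adjusted p = 1e-12) and from 5.84 ± 0.355 to 10.3 ± 1.75 CPM in the knockout line (log2 fold change 0.82, SE 0.14, adjusted p = 4.51e-05). Its exons overlap those of a readthrough gene on the same strand over 3596 bases, so its level is uncertain. Igf2r, the receptor that clears IGF2, also rose in each line, from 78.7 ± 3.77 to 169.8 ± 0.746 CPM in control (log2 fold change 1.11, SE 0.07, adjusted p = 5.88e-11), from 109 ± 4.72 to 167 ± 2.61 CPM in the overexpressor (log2 fold change 0.61, SE 0.07, adjusted p = 1.78e-07) and from 161 ± 14.2 to 276 ± 16.7 CPM in the knockout line (log2 fold change 0.78, SE 0.07, adjusted p = 1.12e-08). Insr, the insulin receptor, stayed between 38.5 and 52.8 CPM over the 6 group means. Its rise in control (log2 fold change 0.27, SE 0.09, adjusted p = 0.0145) was lost with library totals (0.03, adjusted p = 0.817) and without control myoblasts C (0.0521, range 0.0116 to 0.817), and in the mutant lines it did not pass (-0.16, adjusted p = 0.137 and -0.18, adjusted p = 0.0997). In the knockout line a fall passed with library totals (-0.34, adjusted p = 0.00577) and without knockout myotubes A (-0.26, adjusted p = 0.0246, range 0.00577 to 0.645).

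Several genes that control the release of IGF from binding proteins differed between control and mutant cells. Stc1, a stanniocalcin that inhibits PAPP-A, went from 0.169 ± 0.0553 CPM in control myoblasts to 123 ± 2.83 CPM in control myotubes (log2 fold change 9.51, SE 0.19, adjusted p = 9.95e-16). In mutant myotubes it had 2, 1 and 1 counts in the overexpressor libraries and 4, 2 and 0 counts in the knockout libraries, at or near the detection limit. An antisense transcript overlaps its exons over 229 bases. Stc2, the related inhibitor, rose in control from 13.2 ± 1.02 to 24.2 ± 1.73 CPM (log2 fold change 0.87, SE 0.15, adjusted p = 8.24e-05), fell in the knockout line from 18.4 ± 1.79 to 9.69 ± 0.703 CPM (log2 fold change -0.93, SE 0.16, adjusted p = 5.29e-05) and was low in the overexpressor at 3.27 ± 0.414 and 2.83 ± 0.939 CPM (log2 fold change -0.20, SE 0.17, adjusted p = 0.321), where a fall passed without overexpressor myotubes B (-0.50, adjusted p = 0.00421, range 0.00421 to 0.902). Pappa, which encodes PAPP-A, was higher than control in overexpressor myoblasts (6.55 ± 2.04 against 1.77 ± 0.30 CPM, log2 fold change 1.89, SE 0.23, adjusted p = 2.13e-06) and in knockout myoblasts (9.32 ± 0.736 CPM, log2 fold change 2.39, SE 0.23, adjusted p = 6.41e-08). It rose with differentiation in control to 4.66 ± 0.425 CPM (log2 fold change 1.39, SE 0.23, adjusted p = 3.48e-05), fell in the knockout line to 5.28 ± 1.48 CPM (log2 fold change -0.82, SE 0.21, adjusted p = 0.0022) and did not pass in the overexpressor at 7.02 ± 1.24 CPM (log2 fold change 0.10, SE 0.21, adjusted p = 0.698).

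Adam12, a metalloprotease that can cleave IGFBP3 and IGFBP5, was 6.01-fold lower in overexpressor than in control myoblasts (8.93 ± 0.582 against 53.7 ± 0.877 CPM, log2 fold change -2.59, SE 0.09, adjusted p = 8.29e-14). Htra1, a secreted serine protease with an IGFBP-like domain, rose in control from 117 ± 2.78 to 867 ± 136 CPM (log2 fold change 2.89, SE 0.09, adjusted p = 1.52e-14). It was lower than control in overexpressor myotubes (71 ± 6.45 CPM, log2 fold change -3.61, SE 0.10, adjusted p = 2.64e-15) and in knockout myotubes (62 ± 3.33 CPM, log2 fold change -3.80, SE 0.10, adjusted p = 1.19e-15). Its relative Htra3 fell in control (log2 fold change -1.89, SE 0.14, adjusted p = 1.15e-09) and was higher than control in knockout myotubes (41.7 ± 0.775 against 8.02 ± 1.59 CPM, log2 fold change 2.38, SE 0.14, adjusted p = 6.74e-11).

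Below the receptor, Trib3, a pseudokinase known to bind AKT, rose in control from 4.35 ± 0.361 to 333 ± 29.6 CPM (log2 fold change 6.26, SE 0.16, adjusted p = 2.07e-15). It was lower than control in overexpressor myotubes (12.8 ± 2.02 CPM, log2 fold change -4.70, SE 0.15, adjusted p = 3.02e-14) and knockout myotubes (6.95 ± 0.332 CPM, log2 fold change -5.58, SE 0.16, adjusted p = 6.3e-15). Socs2, a feedback inhibitor of growth factor signalling, was higher than control in overexpressor myoblasts (126 ± 8.63 against 35.7 ± 2.35 CPM, log2 fold change 1.82, SE 0.10, adjusted p = 3.44e-11) and in knockout myoblasts (119 ± 2.58 CPM, log2 fold change 1.74, SE 0.10, adjusted p = 4.49e-11). Dusp6, an ERK phosphatase, was higher than control in overexpressor myotubes (61.9 ± 4.93 against 23 ± 0.925 CPM, log2 fold change 1.43, SE 0.07, adjusted p = 9.42e-12) and in knockout myotubes (78.2 ± 1.92 CPM, log2 fold change 1.77, SE 0.07, adjusted p = 4.92e-13). Pik3ip1, an inhibitor of PI3K, was lower than control in overexpressor (4.67 ± 0.906 against 27.8 ± 2.64 CPM, log2 fold change -2.58, SE 0.12, adjusted p = 4.45e-12) and knockout myoblasts (10.4 ± 0.174 CPM, log2 fold change -1.42, SE 0.11, adjusted p = 4.56e-09). Ddit4l, an inhibitor of mTOR complex signalling, had 3, 1 and 2 counts in knockout myoblasts and 14.7 ± 1.58 CPM in knockout myotubes (adjusted p = 4.76e-14), while Deptor, another mTOR inhibitor, rose in the overexpressor from 48.1 ± 6.4 to 212 ± 42.9 CPM (log2 fold change 2.14, SE 0.14, adjusted p = 7.83e-10).

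Of the other listed genes with the largest changes on differentiation, Lrp2, an endocytic receptor, fell in control (-4.20, adjusted p = 1.27e-10). In the overexpressor line Foxo6, a FoxO transcription factor, rose (1.88, adjusted p = 2.65e-11). Falls there were seen in Pik3cd, a catalytic subunit of PI3K (-2.02, adjusted p = 9.36e-10), Socs1 (-1.66, adjusted p = 2.01e-07) and Plat, a plasminogen activator (-1.61, adjusted p = 7.39e-13). In the knockout line Hras (1.52, adjusted p = 5.75e-10) and Foxo6 (1.46, adjusted p = 1.61e-09) rose, while Rasa1, which switches RAS off, fell (-1.68, adjusted p = 0.000419).

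**Figure D5:**
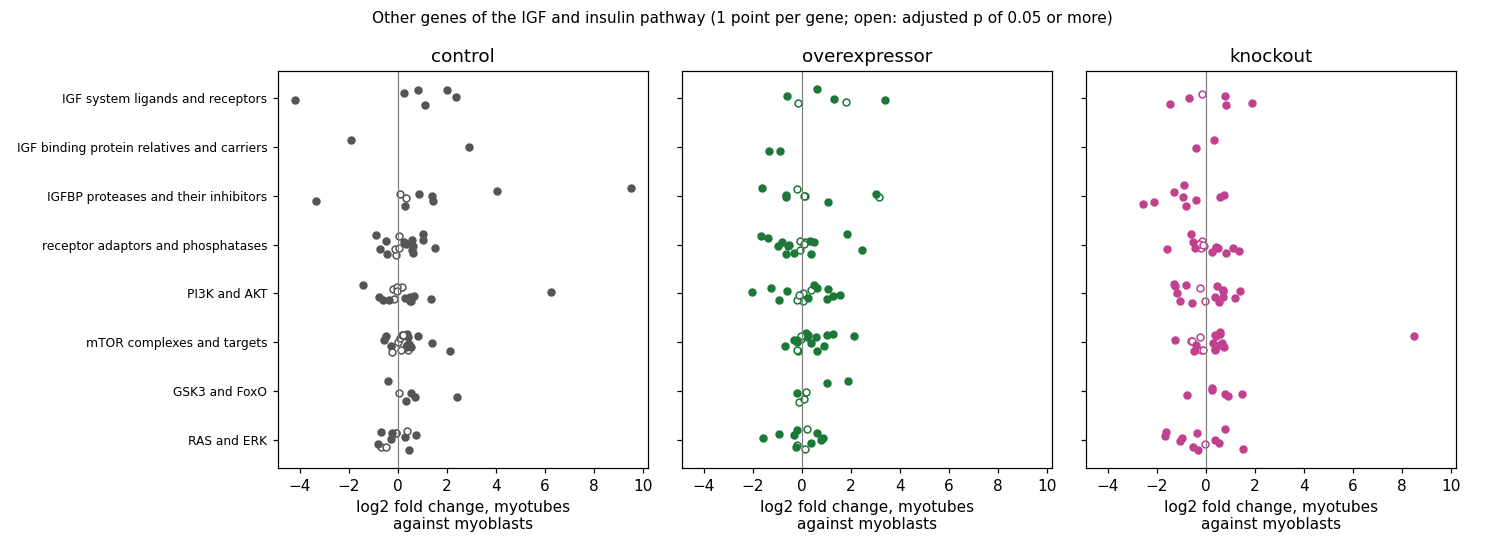
Log2 fold change from myoblasts to myotubes of the 87 tested genes of the IGF and insulin pathway, 1 point per gene, by list, in the control, overexpressor and knockout lines. Open points did not pass the test, the vertical spread within a list carries no value, and fitted values of genes at the detection limit depend on the model. The points far to the right are Stc1 and Trib3 in control and Ddit4l in the knockout line.

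Genes of similar pattern were sought outside the members, among tested genes with a mean of at least 5 CPM in their highest group. Symbols of the Gm and Rik kind were left out. Among these, the genes whose levels followed those of Igf1 most closely over the 18 libraries were Angpt4 (Pearson r = 0.989 of log2 CPM), Col1a1 (0.970) and Adamts2 (0.970). Angpt4, an angiopoietin, had means of 14.3, 0.12 and 10.7 CPM in control, overexpressor and knockout myoblasts and 130.3, 2.67 and 12.5 CPM in myotubes. Igfbp3 was followed by Medag (0.982), Parp11 (0.981) and Slc24a3 (0.978). Medag had means of 15.4, 11.6 and 1.7 CPM in myoblasts and 38.8, 17.7 and 1.85 CPM in myotubes. For Igfbp5 the nearest genes were Defb41 (0.927), Enpp5 (0.927) and Chka (0.912). The 18 libraries are 6 groups of 3, so these values describe mostly the differences between 6 group means.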

How the data were processed

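Poly(A)-selected RNA of C2C12 cells was sequenced in 18 libraries, per the labels' protocols. The authors deposited whole-number read counts per gene. The submitters' processing notes name STAR 2.7.9a, featureCounts of Subread 2.0.3, FastQC 0.11.7, DESeq2 1.32.0 and the build mm10 (GRCm38). Which annotation release was counted, and whether strand was used, is not given in the sources used here. A second deposited table of transformed values was not used.

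Symbols came from GENCODE M21, which left 260 of 55450 identifiers unmatched (0.00589% of counts). Counts were fitted with edgeR 4.0.16 in R 4.3.3 (TMM scaling, filterByExpr by group, robust quasi-likelihood F test, 6 groups, 12 residual degrees of freedom), with Benjamini-Hochberg adjustment over the 17912 genes tested in each of 11 contrasts and a threshold of 0.05. SE is the log2 fold change divided by the square root of F. CPM are counts scaled to a common library size with TMM factors, and CPM per kb divides by the union of exons. Where a group held 1 to 3 counts, summed counts were compared with an exact 95% interval. The fit was run on simulated counts for knockout against control myotubes, with few genes changed and equal numbers up and down. That run cannot test the scaling, since 68% of all genes passed in that contrast here. Promoters came from RefSeq (GRCm38.p6), and 10 of 10 members were matched.

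The members, the lists and the tests were chosen with earlier results of these data known. Named pathway genes were the 3 highest and 3 lowest called log2 fold changes per contrast with no overlap between groups and a mean of at least 5 CPM in the higher group, together with Igf2, Igf2r, Insr, Igfbp1, Pappa, Stc1 and Stc2, and some of these are not reported here. Genes of similar pattern were the 3 with the highest Pearson r of log2 CPM (prior count 2), within the limits on level and symbol given with them. No 2 libraries of a group agreed within sampling noise. Alternatives were DESeq2 1.42.0 size factors or its Wald test, library totals, no filter on low counts, a replicate block, fits with only the groups compared, and leaving out each library.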

Additional observations from a re-analysis of the deposited data

Results flagged for a closer look

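The change from myoblasts to myotubes was compared between each mutant line and control by a test of the difference itself. It was passed by 5 of 8 members in the overexpressor line, where 39% of all genes passed. In the knockout line 6 of 8 passed, where 50.1% of all genes did. In the overexpressor line the response of Igfbp2 lay 2.19 above that of control on the log2 scale (adjusted p = 2.86e-08), so that the fall was shallower, and that of Igfbp4 lay below it (-2.44, adjusted p = 1.75e-07), so that the rise was smaller. Igfbp5 had the opposite direction to control, a difference of -2.71 (adjusted p = 3.31e-13). Irs1 (0.67, adjusted p = 0.00174) and Irs2 (0.56, adjusted p = 0.00417) fell less.

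In the knockout line Igfbp2 differed from control by 4.22 (adjusted p = 9.42e-12), Igfbp4 by -2.66 (adjusted p = 7.24e-09) and Igfbp5 by -1.34 (adjusted p = 1.9e-09). Igfbp6, which rose there, differed by 1.20 (adjusted p = 1.53e-05). Igfbp7 fell more (-0.46, adjusted p = 0.00187) and Irs2 fell less (0.69, adjusted p = 0.000596). Both sets of differences use the same control libraries. Groups of 3 libraries were not searched for single outlying values.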

How the results depend on the processing

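Every count of members called stayed within 1.5 times its value under all alternatives tried, and so did the counts of pathway genes and of all genes. With the replicate letter as a replicate block, 7 of 8 members passed in overexpressor myoblasts and 7 of 8 in knockout myoblasts, as without it, and no member's call changed in any contrast. The letters did not pair the libraries, since deviations from the group means correlated between same-letter libraries at -0.358 to 0.264 (45 pairs, median -0.016) and between different letters at -0.315 to 0.446 (90 pairs, median 0.00904). Small differences that did not pass the test, or for Igf1 had none, changed sign, and the cause was not tested. Igf1r in overexpressor against control myotubes (-0.05) became 0.0565 under DESeq2 scaling, 0.0927 with library totals, 0.0345 with only these groups and 0.0566 in the Wald test, and ranged from -0.0641 to 0.0173 when 1 library was left out. Irs2 in that contrast (-0.03) became 0.088, 0.123, 0.061 and 0.0883 in the same order, and ranged from -0.144 to 0.181. Irs1 in knockout against control myotubes (-0.01) became 0.116, 0.0399, 0.045 and 0.116, and ranged from -0.157 to 0.135. With 1 library left out, Igfbp2 in overexpressor against knockout myotubes ranged from -0.0352 to 0.171, Pappa in overexpressor differentiation from -0.0727 to 0.372, the Irs1 response in the knockout line from -0.000797 to 0.291, and Igf1 in knockout differentiation from -0.0278 to 0.252, the last being -0.015 with library totals. The share of higher among all genes called moved with the scaling, from 45.8% to 57.8% with library totals in overexpressor against control myotubes, from 54% to 37.9% in control differentiation and from 45.5% to 34% in knockout differentiation. For the overexpressor response it went from 42.7% to 53.9% under DESeq2 scaling and 61% with library totals, and for the knockout response from 40.4% to 52% under DESeq2 scaling. The median over all genes shifted with library totals from 0.07 to -0.17 in control differentiation and from -0.08 to -0.24 in knockout differentiation. Taking the longest transcript as the length changed the Igfbp2 share of control myoblasts from 39.6% to 47.7%. Over all binding proteins and groups, 20 mean shares moved by more than their SD with this choice and 16 did not. Depth limits Igf1 in overexpressor myoblasts and Igfbp3 in the knockout line, where 1 to 3 counts per group leave wide intervals.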
